A study of Danio rerio with 4 samples.

Results

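The genes described here encode the ligands, receptors, Smad proteins and secreted inhibitors of the BMP, activin, nodal and TGF-beta pathways, as measured in whole zebrafish embryos. They were taken by gene name: 29 array features carried a zebrafish symbol of these families (bmp, gdf, inhb, tgfb, acvr, smad, fst, nog, chrd, ndr), and a further 66 without a zebrafish symbol carried a human ortholog name of the same families. That gave 95 of the 37176 features on the array. The naming rule used no expression value. For 51 of the 95 the human ortholog name was the only name, and these are written in capitals below (BMP3, CHRD).

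Total RNA was measured on 4 NimbleGen arrays labelled with Cy3. On 2 arrays the embryos carried Tg(hsp70-hRASG12V), a transgene for the G12V mutant of a human RAS protein under the heat-inducible hsp70 promoter, and are called transgenic here. On the other 2 arrays the embryos were wild type, with titles tagged ab. Both genotypes were grown at 28.5 °C, received a 1 h heat shock at 37 °C when 24 hours old, and were collected at 30 hours after fertilisation, so the comparison holds no embryo without heat shock. The hsp70 promoter is not restricted to a cell type, each array is a pool of 50 embryos, and the design text names the transgenic embryos heterogeneous without further detail. It also states 3 biological replicates, of which 2 arrays per genotype were analysed here. Differences in strain, clutch or handling cannot be told apart from the transgene.

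Ligands of this family are secreted as dimers and bind pairs of type I and type II receptor kinases at the cell surface. The receptors phosphorylate receptor-regulated Smads: Smad1, Smad5 and Smad9 carry BMP signals, Smad2 and Smad3 carry activin, nodal and TGF-beta signals, and both groups enter the nucleus with Smad4. Chordin and noggin hold BMPs away from their receptors, follistatin does so for activins, and Smad6 and Smad7 block the receptors from inside the cell. In zebrafish embryos, nodal and BMP signals set up the germ layers and the dorsoventral axis, and later BMP signals pattern the eye, heart, fins and tail.

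Of the 95 features, 10 were higher and 11 lower in the transgenic embryos at an adjusted p of 0.05 (limma, Benjamini-Hochberg over all features), and 74 did not pass. Called members were 22.1% of the 95, beside 17.6% of all features. By direction, 10.5% were higher, beside 10.3% of all features, and 11.6% were lower, beside 7.28%. The changes were modest: the called members differed by 0.69 to 1.50 on the log2 scale, or 1.61-fold to 2.82-fold, with adjusted p from 0.014 to 0.046. Irrespective of the test, the transgenic arrays lay above both wild-type arrays in 35 members and below both in 36, together 74.7% beside 67.6% of all features (34.4% upward and 33.1% downward). By a q-value under 0.05 in the authors' deposited table, 38 members were higher and 33 lower, together 74.7% beside 67.7% of all features (34.9% higher and 32.7% lower). At 2-fold or more, 3 were higher and 4 lower, while 6.93% and 3.31% of all features met that rule. The median log2 fold change over the members was 0.02, and over all features 0.01. The median size, regardless of sign, was 0.38, and over all features 0.36.

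The balance between higher and lower calls moved with the scaling of the arrays. Median centring of each array gave 6 members higher and 16 lower, and quantile normalization gave 7 and 14. Over all features the calls were 3830 higher and 2708 lower, turning to 3316 and 3630 with centring and to 3403 and 3440 with quantile normalization. Without transgenic replicate 1, or without transgenic replicate 2, 0 features of the whole array passed in limma, members included. In those fits a lone array stands for the transgenic group and is assumed to vary like the other genotype. Member counts from them are therefore not compared. Leaving out either wild-type array, which leaves a lone array of that genotype, also moved the counts, both among the members and over all features.

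**Figure D1:**
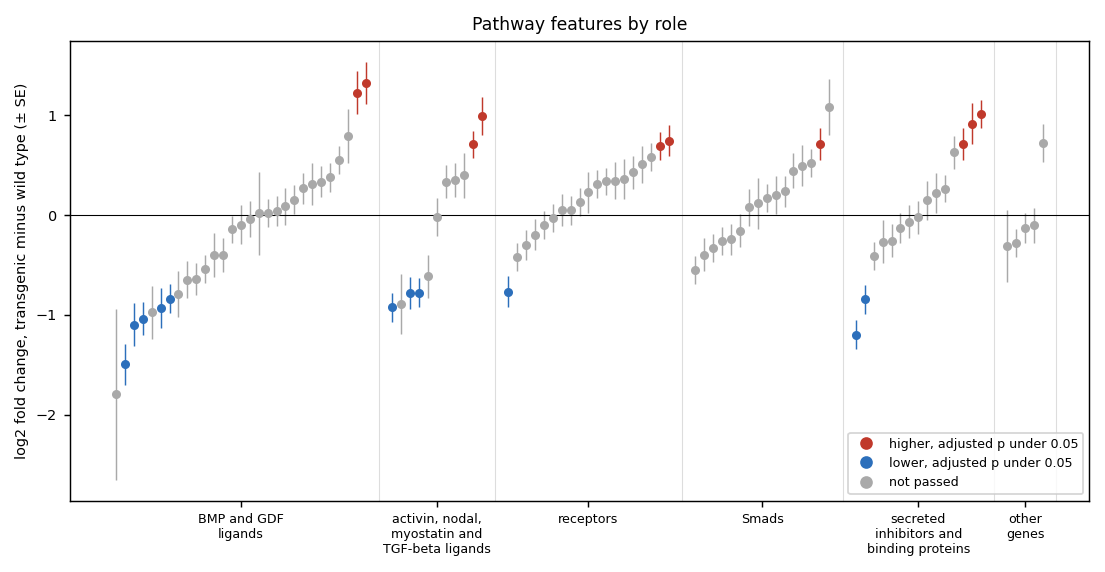
Each point is 1 of the 95 pathway features, ordered within its role, with its log2 fold change (transgenic minus wild type) and SE on the vertical axis. Called features sit at both ends of the ligands and inhibitors, 2 of 19 receptor features were higher and 1 lower, and 1 of 16 Smad features was higher.

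**Figure D2:**
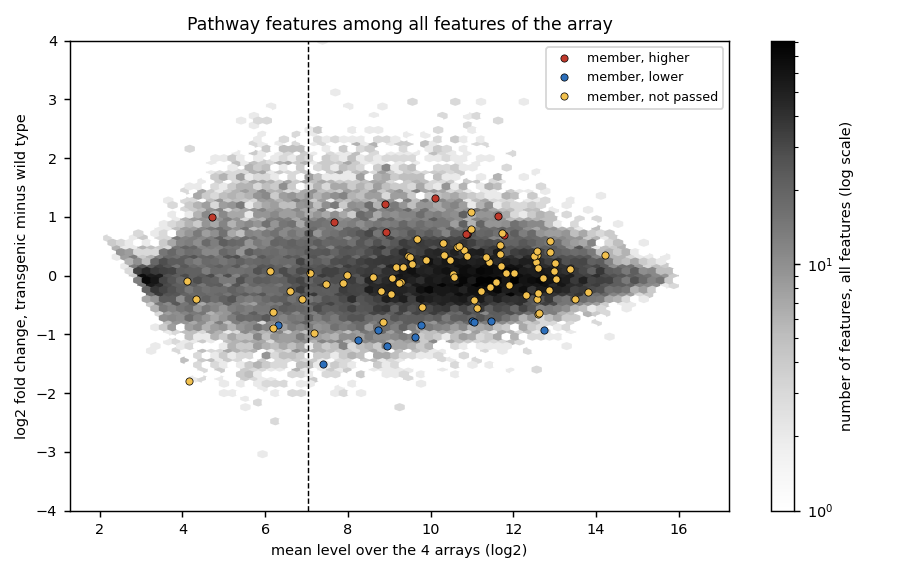
The mean level over the 4 arrays (log2, horizontal) is set against the log2 fold change (vertical) for the 95 members, drawn over the density of all features in grey. The dashed line marks the lowest 25th percentile of the arrays (7.05), and 22 features of the array beyond 4 on the vertical axis are not drawn; the members lie within -1.80 and 1.33.

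The array medians were 9.62 and 9.61 (log2) for transgenic and 9.50 and 9.55 for wild-type replicates 1 and 2. The transgenic pair correlated at 0.996 and the wild-type pair at 0.988 (Pearson, over features, which are not independent replicates). The values carry no detection call, so a group mean under 7.05, the lowest 25th percentile of the 4 arrays, is called dim here and may hold background: 12 of the 95 members (12.6%) had a group mean that low, beside 27.4% of all features. As a check of the label whole embryo, 55 of 59 features of markers of muscle, notochord, endothelium, blood, neurons, epidermis, neural crest, heart, hatching gland, leukocytes and periderm lay above the 25th percentile. Most features of the array lie above that level by definition, so it is a low bar. Of the 49 genes listed as markers, 29 were measured, with these 59 features. Of these 59, 4 were higher and 7 lower in the transgenic embryos, while 10.3% and 7.28% of all features were. The mean level of the 59 was 11.61 and 11.65 on the transgenic and 11.67 and 11.70 on the wild-type arrays. Of the 11 lists, 5 had higher means on both transgenic than on both wild-type arrays and 6 had lower means. The largest gaps were in hatching gland (1 feature, 8.71 and 8.26 on the transgenic against 7.58 and 7.77 on the wild-type arrays) and in neural crest and pigment (3 features, 9.37 and 9.35 against 10.04 and 9.82). Features within a list went both ways: among 15 of skeletal muscle, whose means were 11.88 and 11.90 against 12.07 and 12.19, myhz2 was higher by 0.94 and 2 of ttnb were lower (-1.27 and -1.60). Outside muscle, called rises were in csf1ra (1.74), flt1 (1.42) and cdh1 (1.34). Called falls were in a feature each of gad1b (-1.24), cyt1 (-1.18), fli1 (-0.87), mitfa (-0.75) and krt5 (-0.58). The part of these lists in the pathway results was not tested. In whole embryos fewer cells of a type and less RNA per cell cannot be told apart.

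Among the BMP and GDF ligands, 29 features in all, 2 were higher, 5 lower and 22 did not pass, a called share of 24.1% beside 17.6% of all features. The largest fall of a called member was in a GDF6 feature; GDF6 is a BMP-type ligand that zebrafish use in the dorsal eye. Its level was 6.66 and 6.66 (log2) on the transgenic and 8.41 and 7.91 on the wild-type arrays, a log2 fold change of -1.50 ± 0.21 (SE, n = 2 arrays per genotype, adjusted p = 0.018 in limma). Both transgenic arrays lay below both wild-type arrays and were dim. Other features of this subgroup did not pass: gdf6b was at 9.21 and 9.29 against 9.14 and 9.05 (0.16 ± 0.14), and gdf6a, which the file names LOC566470 and the naming rule leaves out, was at 11.16 and 11.34 against 11.70 and 11.93 (-0.57 ± 0.16, adjusted p = 0.076). A GDF3 feature, named for the ligand that zebrafish embryos need as a partner of nodal, read 7.75 and 7.65 against 9.06 and 8.53 (-1.10 ± 0.22, 2.14-fold).

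BMP3, known in mammals as a BMP that opposes other BMPs, gave 3 features that all pointed down. One read 9.19 and 9.00 on the transgenic against 10.24 and 10.03 on the wild-type arrays (-1.04 ± 0.16, adjusted p = 0.022 in limma). The second read 8.39 and 8.12 against 9.38 and 8.99 (-0.93 ± 0.20, adjusted p = 0.041). The third, with the zebrafish symbol bmp3, read 12.22 and 12.38 against 12.84 and 13.05, and its difference of -0.64 ± 0.16 did not pass (adjusted p = 0.054). None of the 3 had transgenic and wild-type arrays that overlapped.

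The called rises among these ligands were in 2 features whose ortholog column lists BMP7 first, with 7 other BMP or GDF names and NFYC, so which gene they measure is uncertain. They read 10.82 and 10.70 on the transgenic against 9.68 and 9.19 on the wild-type arrays (1.33 ± 0.21, 2.51-fold), and 9.52 and 9.48 against 8.54 and 8.01 (1.23 ± 0.22, 2.34-fold). No other BMP7 feature passed: 6 features with BMP7 as first ortholog name, one of them with the zebrafish symbol bmp6, spread from -0.97 to 0.55. A GDF9 or BMP15 feature, for ligands of the ovary, also fell (-0.84 ± 0.15). It read 5.92 and 5.84 against 6.80 and 6.64, dim in both genotypes, and neither gdf9 (0.09) nor the other GDF9 feature (-0.10) passed.

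Among the members, the best known BMP ligands gave no call under their own names. Outside the naming rule, a BMP2 feature was called lower (-0.70 ± 0.15). The other feature of that gene did not pass (-0.37 ± 0.15). The feature of bmp2b, which encodes the BMP that ventralises the early zebrafish embryo, read 10.51 and 10.58 on the transgenic and 10.55 and 10.50 on the wild-type arrays, a difference of 0.02 ± 0.14 whose sign turned with scaling (-0.07 with quantile normalization or median centring). BMP4, another ventralising ligand, had 2 features that went opposite ways. One was lower, 12.14 and 12.41 against 12.79 and 13.06 (-0.65 ± 0.18, adjusted p = 0.072), and the other higher, 11.69 and 11.06 against 10.38 and 10.78 (0.79 ± 0.27, adjusted p = 0.11). A BMP5 feature differed by 0.38 ± 0.15 without passing.

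The activin, nodal, myostatin and TGF-beta ligands gave 11 features, of which 2 were higher, 3 lower and 6 did not pass (45.5% called, beside 17.6% of all features). The gene tgfb3, one of the TGF-beta ligands and known in mammals for palate fusion, was lower. It read 12.23 and 12.32 (log2) on the transgenic and 13.25 and 13.16 on the wild-type arrays, a difference of -0.93 ± 0.14 (1.90-fold, adjusted p = 0.021 in limma). Within each genotype the arrays lay much closer to each other than to the other genotype. Among the members, the other TGF-beta ligands did not pass. The gene tgfb1a differed by 0.35 ± 0.17, a second TGFB1 feature by 0.40 ± 0.23 and tgfb2 by -0.02 ± 0.19. Most features of tgfb1b, a TGF-beta ligand gene outside the naming rule, were called higher and are described below.

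The activin subunit gene inhbb was lower. Its feature, matched by accession, read 10.72 and 10.58 on the transgenic against 11.32 and 11.53 on the wild-type arrays (-0.78 ± 0.16, 1.72-fold). A second feature known only by the ortholog INHBB, a name that inhbab also carries, read 10.66 and 10.54 against 11.45 and 11.31 (-0.78 ± 0.15, 1.72-fold). In both features the transgenic arrays lay below the wild-type arrays. The subunit gene inhbab was dim in both genotypes and did not pass (-0.61 ± 0.22), and an INHBA feature differed by 0.34 ± 0.16.

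The rises in this group were in gdf11 and mstna, related ligands that use activin receptors. For gdf11, known in mammals for patterning the trunk and tail, the arrays read 11.25 and 11.20 against 10.50 and 10.54 (0.71 ± 0.14, 1.63-fold). For mstna, a myostatin gene that the file lists as gdf8l, they read 5.28 and 5.16 against 4.02 and 4.43 (0.99 ± 0.19). All 4 arrays lay under the 25th percentile, and the call of mstna ended when 50 was added to each value before the logarithm. Its paralog mstnb, outside the naming rule and also dim, did not pass. It read 6.40 and 6.54 against 6.28 and 6.49 (0.08 ± 0.16).

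**Figure D3:**
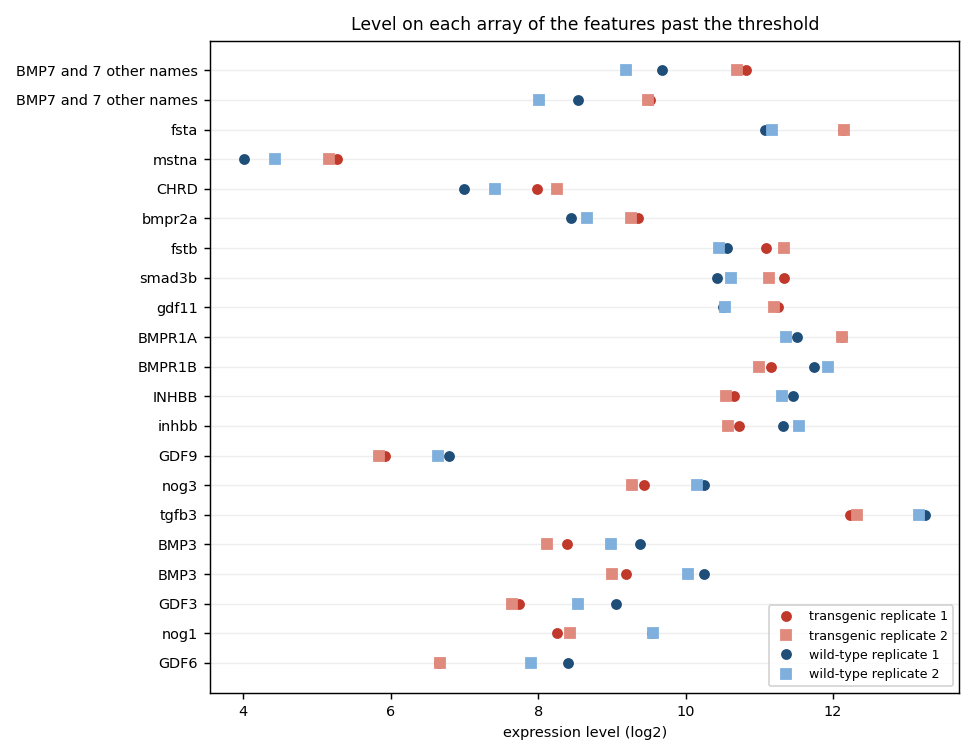
The level (log2) of the 21 called features is drawn for each of the 4 arrays, ordered by log2 fold change from the largest fall (GDF6) at the bottom to the largest rise at the top. In each of the 21 features the 2 transgenic arrays lie on the same side of the 2 wild-type arrays, which selection by the call favours. Over all features, the arrays did not overlap in 67.6%. Where points coincide, the square hides the circle.

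Of 19 receptor features, 2 were higher, 1 lower and 16 did not pass, a called share of 15.8% beside 17.6% of all features. The transgenic arrays lay above both wild-type arrays in 10 and below them in 5, together 78.9% beside 67.6% of all features. The BMP type II receptor gene bmpr2a read 9.35 and 9.26 on the transgenic and 8.45 and 8.67 on the wild-type arrays (0.75 ± 0.15, 1.68-fold, adjusted p = 0.038 in limma). Its paralog bmpr2b pointed the same way without passing, at 10.98 and 10.87 against 10.23 and 10.61 (0.51 ± 0.19, adjusted p = 0.12).

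For the type I receptor BMPR1A, 1 of 4 features rose, reading 12.12 and 12.12 against 11.50 and 11.35 (0.69 ± 0.14), and this call ended with median centring. The other 3, bmpr1ab among them, differed by 0.13, -0.10 and 0.43. For its relative BMPR1B, 1 of 3 features fell, reading 11.16 and 10.99 against 11.75 and 11.93 (-0.77 ± 0.16). The other 2 also had negative differences, -0.42 for bmpr1ba and -0.20, and did not pass. A feature of ACVR1B, a type I receptor of activin and nodal, fell just outside the threshold. It read 13.14 and 13.23 against 12.57 and 12.63 (0.59 ± 0.14, adjusted p = 0.0502 in limma). The gene acvr1bb, with the same ortholog but outside the naming rule, pointed the other way. It read 10.03 and 9.73 against 10.17 and 10.65 (-0.53 ± 0.22, adjusted p = 0.16 in limma).

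The remaining receptor features were further from the threshold. The 2 features of ACVR1, a BMP type I receptor, differed by -0.03 and 0.31, and an ACVR2 feature by -0.30. The TGF-beta type II receptor TGFBR2 had features at 0.36, 0.34 and, for tgfbr2b, 0.05. Features of ACVR2B differed by 0.23 and 0.35, and acvr2aa by 0.05.

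Of 16 Smad features, 1 was higher, 0 were lower in limma and 15 did not pass, a called share of 6.25% beside 17.6% of all features. At an unadjusted p of 0.05 the counts were 3 higher and 1 lower, and by a q-value under 0.05 in the authors' deposited table they were 8 and 6, together 87.5% beside 67.7% of all features. The called gene was smad3b, a carrier of activin and TGF-beta signals, at 11.33 and 11.13 on the transgenic and 10.42 and 10.62 on the wild-type arrays (0.71 ± 0.16, adjusted p = 0.046 in limma). The call ended with median centring, quantile normalization or the replicate number as a block, and without wild-type replicate 1. The 3 further SMAD3 features differed by 0.44, 0.50 and -0.26 and did not pass.

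The largest difference among Smads was not a call. A SMAD4 feature read 11.60 and 11.45 on the transgenic against 10.07 and 10.82 on the wild-type arrays (1.08 ± 0.28, adjusted p = 0.059), and the wild-type arrays lay further from each other than the transgenic arrays did. The other 2 SMAD4 features differed by 0.12 and 0.20. The BMP Smad genes smad1 (-0.40 ± 0.17) and smad5 (-0.24 ± 0.16 and -0.16 ± 0.17) had small negative differences, SMAD9 0.24 ± 0.15, and the 2 SMAD2 features 0.08 and -0.33. The inhibitory Smads, named after their values were seen, did not pass either. For SMAD6, 1 feature was at 11.90 and 11.96 against 11.45 and 11.37 (0.52 ± 0.14) and the other at 10.91 and 10.78 against 11.36 and 11.43 (-0.55 ± 0.14). For SMAD7 the difference was 0.17 ± 0.14.

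Secreted inhibitors and binding proteins went both ways by gene. Of 15 features, 3 were higher, 2 lower and 10 did not pass (33.3% called, beside 17.6% of all features). Both follistatin genes, which encode secreted proteins that sequester activin, were higher. Both noggin genes with a zebrafish symbol in the file, which encode BMP antagonists, were lower. Another noggin gene, nog5, outside the naming rule, was dim and did not pass.

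The follistatin gene fsta read 12.14 and 12.14 (log2) on the transgenic and 11.08 and 11.18 on the wild-type arrays, a rise of 1.01 ± 0.14 (2.02-fold, adjusted p = 0.017 in limma). Its paralog fstb read 11.09 and 11.33 against 10.55 and 10.45 (0.71 ± 0.16, 1.64-fold, adjusted p = 0.044), and that call ended with median centring, quantile normalization or the replicate number as a block. In both genes the 2 genotypes lay apart by more than the arrays of either genotype.

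The noggin gene nog1 read 8.26 and 8.43 against 9.54 and 9.55, a fall of 1.20 ± 0.15 on the log2 scale (2.30-fold), and it had the lowest adjusted p of the 95 members (0.014 in limma). For nog3, another noggin gene, the arrays read 9.43 and 9.28 against 10.25 and 10.15 (-0.84 ± 0.15, 1.79-fold). A further NOG feature differed by -0.26 ± 0.16 without passing. The gene nog5 read 3.27 and 3.44 against 3.43 and 3.62, dim in both genotypes (-0.17 ± 0.16). A CHRD feature, for the BMP antagonist chordin, was higher at 7.98 and 8.25 against 6.99 and 7.41 (0.92 ± 0.21, adjusted p = 0.046). The chordin call ended with median centring, quantile normalization or a trended prior, and without wild-type replicate 1.

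Among the 95 members, the follistatin-like and BMP-binding genes did not pass. Nearest to the threshold was an FSTL5 feature, at 9.99 and 9.99 against 9.22 and 9.51 (0.63 ± 0.16, adjusted p = 0.060), while the other 2 FSTL5 features differed by 0.26 and -0.13. The secreted glycoprotein genes fstl1a and fstl1b differed by -0.41 ± 0.14 and 0.22 ± 0.20, and bmper, for an extracellular modulator of BMPs, by -0.02 ± 0.16 and 0.15 ± 0.20 in its 2 features. The prefixes also took 5 genes with other roles. At an unadjusted p of 0.05 in limma, 1 of these was higher (bmp2k), or 20% beside 20.1% of all features. By adjusted p, 0 of the 5 genes passed, beside 17.6% of all features. They were bmp1a and bmp1b, for proteases that cleave chordin and procollagen (-0.31 and -0.13), the kinase gene bmp2k (0.72 ± 0.19, adjusted p = 0.062), the matrix protein gene tgfbi (-0.28) and tgfbrap1 (-0.10).

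Features that share a human ortholog name gave a view of how far a call depends on the probe. Grouped by first ortholog name, or by their own symbol where the file gives none (gdf9, nog3), the 95 members had 49 names, and 29 names had more than 1 feature, 75 features in all. The 2 features that list BMP7 with 7 other BMP or GDF names were set apart as a name of their own. Under BMP7 they would join 6 uncalled features, and that name would then hold called and uncalled features. In 14 of the 29 the features differed in sign. Calls fell on 11 of the 29: in 3 every feature was called the same way (FST, GDF8 with gdf11 and mstna, and the pair led by BMP7), in 8 some features were called and others not, and in 0 were features called in both directions. A shared ortholog name can cover zebrafish paralogs, so differing features need not measure the same gene. Outside the 95, mstnb also carries the name GDF8 and did not pass (0.08 ± 0.16). Opposite calls did occur once features outside the 95 were counted. With the name SMAD4, a feature was called higher (1.20 ± 0.18) and another, dim, lower (-0.65 ± 0.14). Features of tgfb1b with the name TGFB3 were called higher, while the member tgfb3, which carries that name too, was lower.

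**Figure D4:**
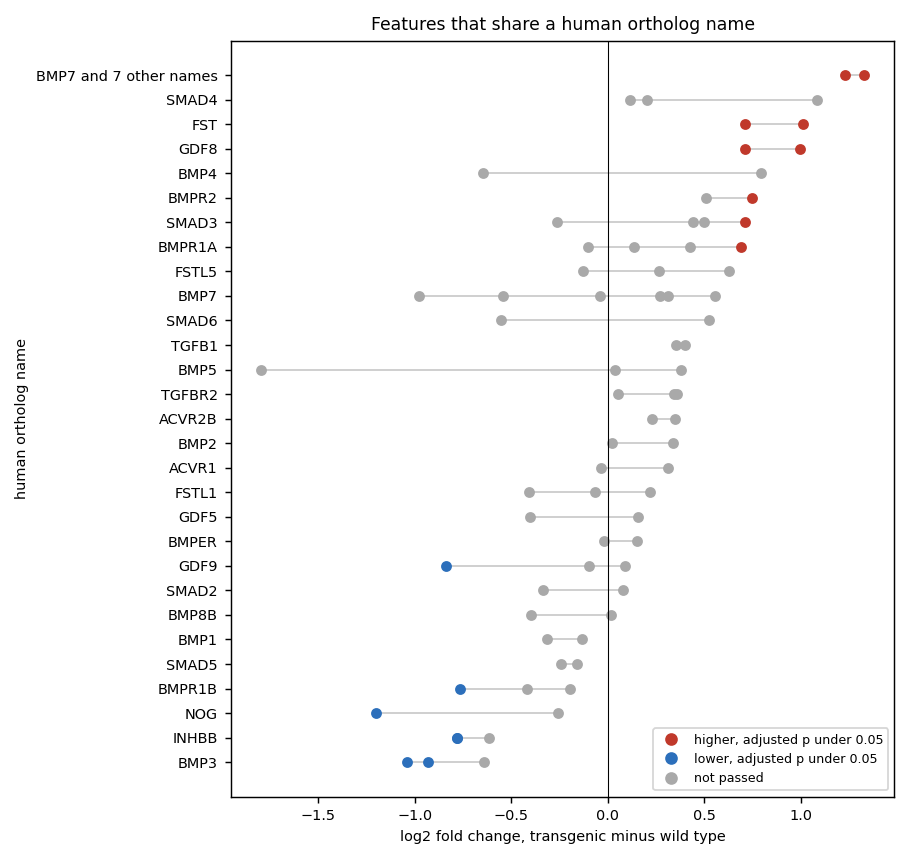
Each row is 1 of the 29 human ortholog names with more than 1 feature, and each point is a feature's log2 fold change, transgenic minus wild type. The pair that lists BMP7 with 7 other names has its own row, apart from BMP7. Red and blue points passed an adjusted p of 0.05 upward and downward; no row holds both colours, and 14 rows cross 0.

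A further 37 features belong to the same families but fall outside the naming rule, most because the file gives another symbol, such as a clone name, a LOC number or lft. They were gathered after values had been seen. Of these, 10 were higher and 4 lower, a share of 37.8% beside 17.6% of all features, and 24 had a group mean under the 25th percentile. Most of the 10 were features of a single gene, tgfb1b, described below, so the share does not count separate genes. They held larger differences than the 95. The activin-binding protein gene fstl3 read 9.55 and 9.61 on the transgenic and 5.99 and 6.30 on the wild-type arrays. This was a rise of 3.44 ± 0.17, beside rises of 1.01 in fsta and 0.71 in fstb. The wild-type mean of fstl3 (6.15) was under the 25th percentile and may hold background, unlike those of fsta and fstb.

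The TGF-beta ligand gene tgfb1b, listed as LOC563884, had 7 features, and 6 of them rose by 0.69 to 1.69. The brightest read 8.56 and 9.03 on the transgenic and 7.70 and 7.27 on the wild-type arrays (1.31 ± 0.24, 2.48-fold, adjusted p = 0.031 in limma). Of the other 5 that rose, 4 had a wild-type mean under the 25th percentile and 1 had both means under it, and the seventh feature, under it in both genotypes too, differed by -0.16 ± 0.18. The ortholog column gives TGFB3 for 4 of the 6 that rose, TGFB1 for 1 and no name for 1; the name tgfb1b comes from the gene number.

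The lefty genes, which encode secreted antagonists of nodal, were both lower. The arrays of lft1 read 6.46 and 6.96 against 8.85 and 8.64 (-2.03 ± 0.22, 4.10-fold), and those of lft2 read 5.52 and 6.17 against 7.29 and 7.35 (-1.48 ± 0.25, 2.78-fold). Both transgenic means were under the 25th percentile. The nodal gene ndr1, whose symbol older nomenclature also used for ndr2, read 5.49 and 5.99 against 6.30 and 6.96, under that percentile in both genotypes (-0.89 ± 0.30, adjusted p = 0.10).

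Other calls among these 37 concerned receptors and SMAD4. An ACVR2B feature read 11.60 and 11.66 on the transgenic against 9.64 and 10.60 on the wild-type arrays (1.51 ± 0.33), whereas the 2 ACVR2B members did not pass. A TGFBR2 feature rose by 0.91 ± 0.19 from a wild-type mean under the 25th percentile. The gene LOC797912, with the ortholog SMAD4, had 1 feature higher, at 11.41 and 11.10 against 9.94 and 10.17 (1.20 ± 0.18), and 1 lower and dim (-0.65 ± 0.14). A BMP2 feature, listed as LOC100002271, fell by 0.70 ± 0.15. The other feature of this gene was brighter and did not pass (-0.37 ± 0.15, adjusted p = 0.15 in limma). Among the members, the feature known only by the ortholog BMP2 differed by 0.34 ± 0.16 and bmp2b by 0.02 ± 0.14, and neither passed.

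Known regulators and targets of the pathway were taken from a list of gene symbols, of which 81 features were measured. In all, 14 were higher, 6 lower and 61 did not pass; 24.7% were called, beside 17.6% of all features. The median log2 fold change was 0.11, beside 0.01 over all features.

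Genes listed as TGF-beta, activin or nodal targets gave 5 of 18 features higher and 0 lower in limma, beside 10.3% and 7.28% of all features. The share higher was 27.8%. Their median was 0.36, beside 0.01 over all features. At an unadjusted p of 0.05 the counts were 9 higher and 1 lower, or 50.0% and 5.56%, beside 20.1% and 16.8% of all features. The brighter feature of gsc, a nodal target that did not pass, read 6.22 and 6.14 against 7.37 and 6.61. The fibronectin gene fn1b read 14.08 and 13.99 on the transgenic and 12.45 and 12.43 on the wild-type arrays (1.60 ± 0.14), and its paralog fn1a 12.56 and 12.73 against 11.26 and 11.84 (1.09 ± 0.24). The gene pmepa1, for an inhibitor of TGF-beta signalling that TGF-beta induces in mammals, read 9.29 and 9.43 against 7.60 and 8.27 (1.42 ± 0.26, 2.68-fold). The latent TGF-beta binding protein gene ltbp3 rose by 0.89 ± 0.14. The actin-binding protein gene tagln2, whose ortholog is given as TAGLN3, rose by 0.84 ± 0.14.

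Genes that respond to BMP in other settings went both ways, with 5 of 25 features higher, 4 lower (36.0% called, beside 17.6% of all features) and a median of 0.01. Within the msx homeobox genes, msx2a rose, from 8.62 and 8.45 on the wild-type to 9.96 and 9.79 on the transgenic arrays (1.34 ± 0.15). In contrast msx3 read 10.44 and 10.31 on the transgenic against 11.20 and 11.33 on the wild-type arrays (-0.89 ± 0.15), and msx1b differed by -0.62 ± 0.14. The Notch and BMP responsive gene hey1 rose by 1.13 ± 0.22, both features of the caudal homeobox gene cdx4 by 1.03 ± 0.23 and 0.85 ± 0.18, and 1 of 2 features of runx2a by 0.84 ± 0.14 at levels under the 25th percentile. Both features of eve1, a ventral and tail homeobox gene, fell by 1.02, from wild-type means of 7.18 and 7.09. Their transgenic means, 6.16 and 6.06, were under the 25th percentile and may hold background. Among the id genes, widely used as BMP targets, id2b differed by 1.03 ± 0.30 and 0.74 ± 0.21 in its 2 features (adjusted p = 0.075 and 0.070), id4 by 0.27 ± 0.16 and id3 by -0.23 ± 0.16, and the pseudoreceptor genes bambia and bambib by 0.28 and -0.30, none of which passed.

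Among extracellular regulators, 3 of 15 features were higher and 2 lower, or 33.3% beside 17.6% of all features. Rises were seen in sost and sostdc1a, for related secreted antagonists of Wnt and BMP signals, and in furina, for a protease that cleaves ligand precursors. They read 12.49 and 12.50 against 10.97 and 11.00 for sost (1.51 ± 0.14), 10.60 and 10.44 against 9.27 and 9.13 for sostdc1a (1.32 ± 0.15), and 11.90 and 12.05 against 10.32 and 11.09 for furina (1.26 ± 0.28). The BMP co-receptor gene hjv fell, at 9.09 and 8.94 against 10.11 and 10.11 (-1.10 ± 0.14), and so did amh, a ligand of gonads that was dim in both genotypes (-1.13 ± 0.17). Of 23 features of intracellular regulators, only fkbp1ab passed in limma (4.35%, beside 17.6% of all features); it encodes a protein that binds type I receptors, and read 10.47 and 10.49 against 9.25 and 9.40 (1.15 ± 0.14).

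**Figure D5:**
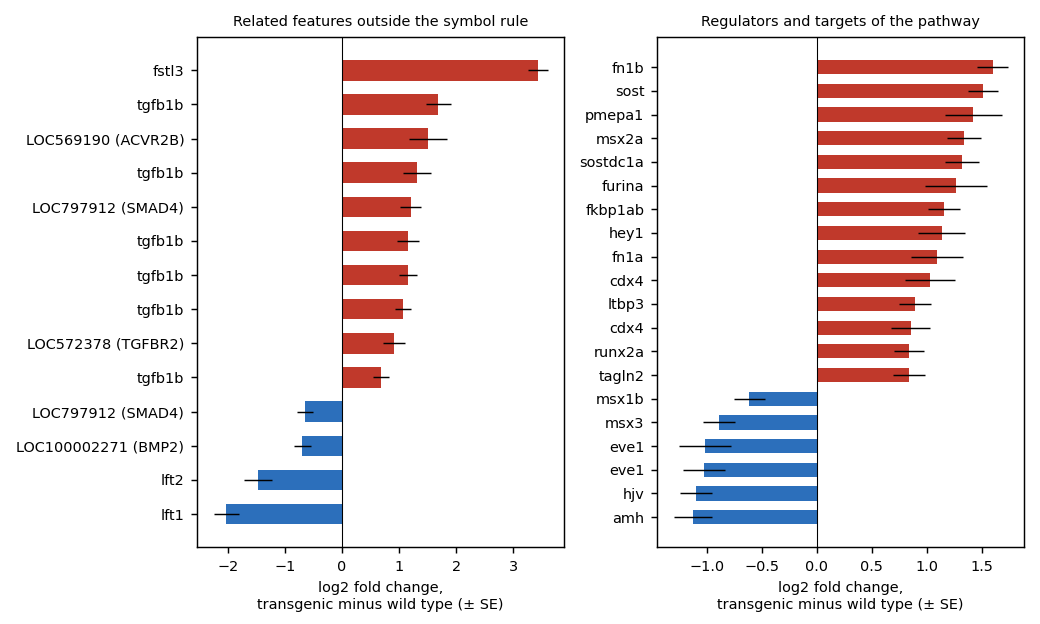
Bars give the log2 fold change (transgenic minus wild type, ± SE) of the called features among the 37 related features outside the naming rule (left, 10 higher and 4 lower) and among the 81 features of regulators and targets (right, 14 higher and 6 lower). Names in parentheses are human orthologs of genes known by a LOC number.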

How the data were processed

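Total RNA was extracted with Trizol and labelled by Roche NimbleGen, per the labels' protocols. The authors deposited log2 expression values per feature and array; base 2 was inferred from maxima near 16 on each array. No source used here gives the scanner, background correction or normalization. The authors' deposited table also holds a mean log2 fold change, which equals the difference of group means within 2.85e-08, and a q-value whose test is not stated. The unit fitted was a log2 value on an array with 1 colour. Groups follow the labelled genotype. The number of arrays limits precision, and nothing says that the pools came from separate clutches, so p-values measure the spread between these arrays, which may be technical.

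File symbols were brought up to date with RefSeq (GRCz12tu, for names only) by accession (15 members), current symbol (24) or synonym (5). Transgenic minus wild type was fitted on all 37176 features in limma 3.58.1 (lmFit, eBayes; R 4.3.3), without covariates. There were 2 residual and 2.92 prior degrees of freedom. A call is a Benjamini-Hochberg adjusted p under 0.05. On simulated data with changes of 2-fold or more, the fit recovered the sizes of the changes. It called most changed features where many were changed, and none where few were. Smaller changes, such as those of most members, were not simulated. The members, the lists and the alternatives were chosen with earlier results of these data known. Named were members with a called feature, up to 4 further names per role with the highest mean level, features sharing a name with a called one, and up to 12 called features of regulators and targets with the largest change; other names were added after values were seen. Alternatives were the scaling (quantile or median), 2 filters on dim features, a trended or robust prior, 50 added before the logarithm, a replicate block, a threshold of 0.10, calls by deposited q-value, and each array left out. No sequence was printed, since no sequence tables were used here.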

Additional observations from a re-analysis of the deposited data

How the results depend on the processing

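Over 14 alternatives none of the 21 called members changed sign where it was tested (the filters remove dim features). Only the scalings (quantile or median) and the 50 added before the logarithm could have changed a sign. The filters, priors, thresholds and replicate block leave the fold change as it is. In each of the 21 the arrays of the genotypes did not overlap, so leaving out 1 array cannot turn its sign. Each lost its call without transgenic replicate 1 and without transgenic replicate 2. The lowest adjusted p of a member was 0.117 and 0.0946 in those fits, in which a lone array is assumed to vary like the other genotype. Otherwise, of the 21, the calls that ended under an alternative were those of CHRD, fstb, smad3b, BMPR1A, the GDF9 or BMP15 feature (trended prior) and mstna; the cause was not tested. Among the members, 6 were higher with median centring and 18 with a trended prior. Over all 37176 features those counts were 3316 and 5315. An adjusted p of 0.10 gave 16 higher and 17 lower, and the deposited q-values 38 and 33. With 1 array left out, 0 to 20 members were higher and 0 to 18 lower.

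Among regulators and targets, 25 were higher and 10 lower with a trended prior, beside 5315 and 3976 of all 37176 features. Of these regulators and targets, 23 were higher at an adjusted p of 0.10 in limma. By the deposited q-values 40 of them were higher and 26 lower. With 1 array left out, 0 to 27 were higher and 0 to 8 lower. Over all features, an adjusted p of 0.10 gave 6193 higher and 5054 lower, the deposited q-values 12981 and 12169, and leaving out 1 array 0 to 7047 and 0 to 5116.

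With the replicate number as a block, 9 members were higher and 14 lower, of which 8 and 11 were called without it. Over all 37176 features the block gave 4404 higher and 2887 lower, of which 3600 and 2376 were called without it. The titles do not say that a number marks a shared batch. Over features, the deviations of transgenic and wild-type replicate 1 from their group means correlated at 0.206. With 2 arrays per genotype the deviations of replicate 2 mirror these, so they add no further value.

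Sign changes were seen in uncalled features. With quantile normalization bmp2b was at -0.068, gdf9 at -0.024, a bmp5 feature at -0.046 and bmp8a at -0.062. With median centring bmp2b was at -0.071, gdf9 at -0.0055, a SMAD2 feature at -0.016, the bmp5 feature at -0.055, bmp8a at -0.075, acvr2aa at -0.043 and tgfbr2b at -0.042. With 50 added before the logarithm bmp8a was at -0.0038. With 1 array left out, bmper ranged from -0.17 to 0.12 and its other feature from -0.069 to 0.37. Likewise SMAD4 ranged from -0.17 to 0.41, fstl1b from -0.0071 to 0.45, bmp1a from -0.81 to 0.18, tgfbrap1 from -0.28 to 0.070, tgfb2 from -0.22 to 0.18, bmp2b from -0.010 to 0.054 and gdf9 from -0.11 to 0.29. The range of bmp8a was -0.60 to 0.64, of the bmp5 feature -0.043 to 0.12, of acvr2aa -0.063 to 0.16 and of tgfbr2b -0.033 to 0.13. The same held for a feature each of FSTL1 (-0.19 to 0.057), ACVR1 (-0.084 to 0.016), GDF9 (-0.29 to 0.091), SMAD2 (-0.11 to 0.26), BMP7 (-0.23 to 0.15), gsc (-0.18 to 0.16) and tgfb1b (-0.34 to 0.024).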

Other observations

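Wild-type arrays stood far apart in 2 members of the BMP ligands. A bmp5 feature read 3.31 and 3.24 (log2) on the transgenic and 3.74 and 6.39 on the wild-type arrays, a difference of -1.80 ± 0.86 (adjusted p = 0.20 in limma), the largest size among the members that did not pass. For bmp8a the arrays read 8.06 and 7.92 against 7.35 and 8.59 (0.02 ± 0.42). The other bmp5 feature read 7.18 and 7.02 against 7.13 and 6.99.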
